A study of Mus musculus with 6 samples.

Results

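The miR-106a-363 cluster of chromosome X and the miR-106b-25 cluster of chromosome 5 are paralogs of miR-17-92, and carry copies of the same few miRNA families. The 9 mature miRNAs described here were chosen by name, 5 from miR-106a-363 (mmu-miR-106a-5p, mmu-miR-18b-5p, mmu-miR-20b-5p, mmu-miR-363-3p and mmu-miR-363-5p) and 4 from miR-106b-25 (mmu-miR-106b-5p, mmu-miR-106b-3p, mmu-miR-93-5p and mmu-miR-25-3p), out of 1900 mature names. The mouse prefix is left off from here on. All 9 had a single row in the tables and a count in every library. The libraries hold small RNA of the renal cortex, 1 library for each of 6 C57BL/6 mice. The tofogliflozin group was 3 mice given the HF/HC/HS/BA diet, a steatohepatitis diet rich in fat and cholesterol with added bile salt, together with tofogliflozin for 8 weeks. The diet-only group was 3 mice given the same diet for 8 weeks without the drug. Tofogliflozin inhibits SGLT2, the glucose carrier of the proximal tubule. No mouse on a normal diet was part of the comparison, so every value describes kidneys of mice on the diet.

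A miRNA cluster is a run of hairpins cut from a shared primary transcript, and each hairpin can give a 5p and a 3p mature strand. Bases 2 to 8 of the mature strand, the seed, do most of the target pairing, so miRNAs with a common seed share many targets. miRNAs with the seed of miR-17, miR-20 and miR-106 are known for speeding the cell cycle and for repressing the inhibitor Cdkn1a, and miR-17-92 is needed for nephron progenitors to keep dividing. The miR-106b-25 cluster lies in Mcm7, which encodes a subunit of the replicative DNA helicase and is transcribed in dividing cells.

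RefSeq held a mature sequence for 8 of the 9 members, on build GRCm38.p6, which has the coordinates of mm10. They are shown, with the seed in capitals, because 3 seeds are shared between loci and the near-identity of some members bears on how reads can be told apart. Carrying the miR-17 seed are 4 members and their miR-17-92 relatives.
miR-106a-5p: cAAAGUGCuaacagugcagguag
miR-20b-5p: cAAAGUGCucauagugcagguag
miR-106b-5p: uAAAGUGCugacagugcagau
miR-93-5p: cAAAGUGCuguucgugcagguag
miR-17-5p: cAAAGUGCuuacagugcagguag
miR-20a-5p: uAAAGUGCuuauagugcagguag
The seed of miR-18 is in 1 member, beside its relative from chromosome 14.
miR-18b-5p: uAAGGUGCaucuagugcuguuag
miR-18a-5p: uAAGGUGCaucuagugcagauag
The seed of miR-25, miR-92 and miR-363 is in 2 members and in miR-92a-3p.
miR-363-3p: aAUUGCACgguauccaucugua
miR-25-3p: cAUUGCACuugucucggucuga
miR-92a-3p: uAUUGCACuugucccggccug
The opposite strand of miR-106b has a seed of its own.
miR-106b-3p: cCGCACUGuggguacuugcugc

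Counted from 1 at the 5′ end, miR-106a-5p differs from miR-17-5p by the single substitution A10U, and miR-20b-5p differs from miR-20a-5p by C1U and C10U. miR-18b-5p differs from miR-18a-5p by U18A and U20A. Between the clusters, miR-106a-5p and miR-106b-5p differ by C1U, A10G and G20A over 21 aligned bases. miR-106a-5p and miR-93-5p differ by A10G, A11U, C12U and A13C. miR-363-3p and miR-25-3p share the seed, but only 9 of 22 bases match.

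On the minus strand of GRCm38.p6, the 6 hairpins of miR-106a-363 span chromosome X, 52741693 to 52742567, a stretch of 875 bases. In GENCODE M21 the first of them, Mir106a, overlaps the end of the long noncoding RNA Kis2 by 5 bases, and the other 5 lie in no annotated gene. The 3 hairpins of miR-106b-25 span chromosome 5, 138165321 to 138165818, or 498 bases, also on the minus strand, all inside Mcm7. Mir106b touches no annotated exon, and Mir93 and Mir25 are overlapped by exons of retained-intron transcripts only.

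The totals of the 6 libraries, with each mature name counted once from its largest row, were 6643638 to 17241972 counts in tofogliflozin mice and 14276384 to 22886200 counts in diet-only mice. Levels are given as CPM, which here are counts relative to library size after scaling with TMM factors. A sum of 3 counts, taken as the limit that a count of 0 allows, correspond to 0.132 to 0.447 CPM, and this limit covers counting error only. The 6 kidney cortex markers were present in every library, with sums of 148378 to 172363 CPM in tofogliflozin mice and 160754 to 171006 CPM in diet-only mice. Tofogliflozin replicate 2, the library with the fewest counts, was set apart from the other 5 along principal component 1 (52.0% of variance), at -13.8 against -0.14 to 6.17. Member results are therefore also given without it.

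The 4 members from miR-106b-25 had more counts than the 5 from miR-106a-363, whose sum leaves out miR-19b-3p and miR-92a-3p because miR-17-92 encodes them too. The miR-106b-25 members summed to 970 ± 42.2 CPM in tofogliflozin mice and 955 ± 21.6 CPM in diet-only mice, and the 5 members of miR-106a-363 summed to 54.9 ± 7.32 CPM in tofogliflozin mice and 39.5 ± 3.90 CPM in diet-only mice (SD, n = 3 each). The ratio of these member sums, miR-106b-25 over miR-106a-363, was 17.8 ± 1.76 in tofogliflozin mice and 24.4 ± 2.57 in diet-only mice (SD, n = 3 each). It ran from 15.8 to 19.1 in the tofogliflozin libraries and from 21.4 to 26.3 in the diet-only libraries. No test was made of these sums. The members were chosen by name with earlier results of these data known, which also limits the p-values given below.

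Ordered by mean CPM over the 6 libraries, the members ran miR-25-3p (628 ± 23.8), miR-106b-3p (183 ± 2.77), miR-93-5p (134 ± 38.9), miR-363-3p (22.1 ± 4.19), miR-106b-5p (17.3 ± 2.38), miR-20b-5p (13.1 ± 5.22), miR-363-5p (7.75 ± 1.31), miR-106a-5p (3.71 ± 1.88) and miR-18b-5p (0.512 ± 0.223; all SD, n = 6 libraries). The ranges of neighbours were clear of each other at 3 of the 8 steps, which lie below miR-25-3p, below miR-93-5p and above miR-18b-5p. At the other 5 steps the ranges overlapped. Ligation favours some sequences over others, so this is an order of read counts and not of molecules.

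**Figure D1:**
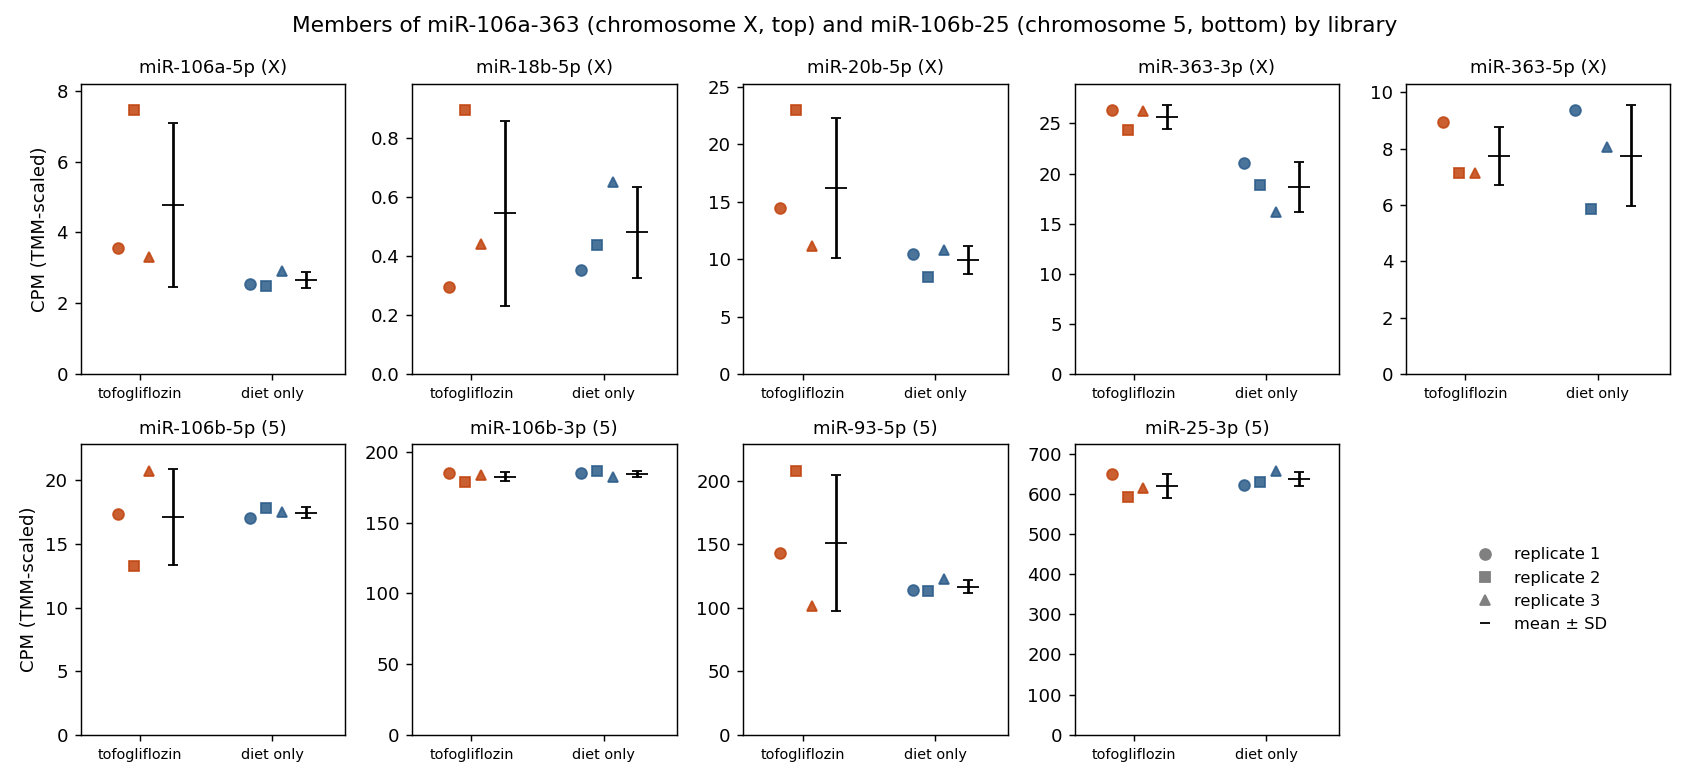
TMM-scaled CPM (vertical axes, each from 0) of the 9 members in the 3 tofogliflozin libraries (orange, left) and the 3 diet-only libraries (blue, right), with marker shape for the replicate number and the mean ± SD in black. miR-106a-5p, miR-20b-5p and miR-363-3p show every tofogliflozin library above every diet-only library, and tofogliflozin replicate 2 (square) is set apart for miR-106a-5p, miR-20b-5p and miR-93-5p.

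The question the groups pose is whether tofogliflozin altered these miRNAs in the kidney of mice on the diet. In edgeR's quasi-likelihood test over all 460 miRNAs that passed the low-count filter, no member passed an adjusted p of 0.05, and neither did any other miRNA (0 called, 0% of those tested). DESeq2 called 2 miRNAs, miR-204-5p and miR-346-5p, named here after their values were seen, and limma-voom called 0. At an unadjusted p under 0.05, 23 of the 460 miRNAs (5.0%) were found, 12 higher (2.61%) and 11 lower (2.39%). Among the 8 members tested, 2 had such a p, miR-20b-5p and miR-363-3p, both higher and both from chromosome X. This count was not stable, at 0 with the replicate block and without diet-only replicate 2 or 3, 1 with limma-voom or without tofogliflozin replicate 1 or 2 or diet-only replicate 1, 3 with DESeq2 and 4 without tofogliflozin replicate 3. Over all miRNAs tested, the count moved to 10 with the replicate block and to 75 of 476 without tofogliflozin replicate 3. It was 13 when tofogliflozin replicate 1 was omitted and 11 when diet-only replicate 2 was. The groups did not overlap for 3 members, all higher with tofogliflozin and all from miR-106a-363, against 23 (5.0%) higher and 32 (6.96%) lower among the 55 (12%) of all tested miRNAs without overlap. Neither trait was particular to these members. Of 3 tested non-members with the seed of miR-25, 2 had an unadjusted p under 0.05 by edgeR and no overlap. These were miR-92a-3p and miR-92b-3p, both higher. In bulk cortex, a change in the cells that hold a miRNA and a change in its amount per cell cannot be told apart.

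Among the chromosome X members with the miR-17 seed, miR-106a-5p had 3.55, 7.46 and 3.32 CPM in tofogliflozin replicates 1, 2 and 3, against 2.55, 2.49 and 2.92 CPM in diet-only replicates 1, 2 and 3. These levels rest on 48, 50 and 60 counts in tofogliflozin mice and on 58, 34 and 45 counts in diet-only mice. The groups did not overlap, and most of the gap came from tofogliflozin replicate 2. For miR-106a-5p the log2 fold change came to 0.80 ± 0.36 (SE; 95% interval -0.04 to 1.64), with an adjusted p = 0.854 by edgeR. It was 0.37 without tofogliflozin replicate 2 (adjusted p = 0.915 by edgeR). Over all alternatives run, the adjusted p ranged from 0.304 to 0.988.

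miR-20b-5p, a miRNA described in human cells as repressing HIF1A and VEGFA, had 14.4, 23.0 and 11.2 CPM in tofogliflozin replicates 1, 2 and 3, against 10.5, 8.48 and 10.8 CPM in diet-only replicates 1, 2 and 3. Tofogliflozin replicate 2 was again the highest library, and tofogliflozin replicate 3 lay just above the highest diet-only mouse. The log2 fold change of 0.69 ± 0.29 (SE; 95% interval 0.03 to 1.35) had an adjusted p = 0.854 by edgeR. Without tofogliflozin replicate 2 it was 0.36 (adjusted p = 0.915 by edgeR).

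miR-363-3p, which shares the seed of miR-25 and closes the cluster on chromosome X, had 26.3, 24.3 and 26.3 CPM in tofogliflozin replicates 1, 2 and 3, against 21.0, 18.9 and 16.1 CPM in diet-only replicates 1, 2 and 3. The groups did not overlap, and here tofogliflozin replicate 2 was the lowest of its group. On the log2 scale the difference was 0.46 ± 0.17 (SE; 95% interval 0.06 to 0.86; adjusted p = 0.854 by edgeR), and 0.50 without tofogliflozin replicate 2 (adjusted p = 0.827 by edgeR). For miR-106a-5p, miR-20b-5p and miR-363-3p the exact 2-sided permutation test gave 0.1, its lower limit for 3 against 3 mice. None of these p-values is independent of earlier results of these data.

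The groups showed no separation for the other strand of the same hairpin. miR-363-5p had 8.95, 7.16 and 7.13 CPM in tofogliflozin replicates 1, 2 and 3, against 9.38, 5.85 and 8.06 CPM in diet-only replicates 1, 2 and 3. All 3 tofogliflozin values lay inside the diet-only range, at a log2 fold change of -0.005 ± 0.24 (SE; 95% interval -0.57 to 0.56; adjusted p = 0.996 by edgeR).

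miR-18b-5p was close to the limit of detection. It had 4, 6 and 8 counts in tofogliflozin replicates 1, 2 and 3 and 8, 6 and 10 counts in diet-only replicates 1, 2 and 3, or 0.296 to 0.895 CPM in tofogliflozin mice and 0.352 to 0.650 CPM in diet-only mice. It did not pass the low-count filter, and a difference between the groups was not detectable at this depth. Of the other arms of miR-106a-363 not shared with miR-17-92, none passed the filter, with 0 counts in all 6 libraries for miR-106a-3p and miR-20b-3p.

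In miR-106b-25, the strands of the first hairpin differed in level, and the 3p strand varied little between libraries. The hairpin of miR-106b (chr5:138165737-138165818, GRCm38.p6, minus strand) is shown with both mature strands in capitals, since the minor strand here is the 5p strand that bears the miR-17 seed.
Mir106b: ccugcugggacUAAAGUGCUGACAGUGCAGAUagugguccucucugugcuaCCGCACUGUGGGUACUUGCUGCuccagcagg
miR-106b-3p had 185, 179 and 184 CPM in tofogliflozin replicates 1, 2 and 3, against 185, 187 and 182 CPM in diet-only replicates 1, 2 and 3. Its coefficient of variation over the 6 libraries was 1.51%, the lowest of the 460 miRNAs tested, whose median was 23.6%. On 1198 to 4197 counts a library, counting error alone is expected to be no smaller than this. The value and its rank therefore cannot measure how little the mice differed. The median also covers miRNAs with few counts, for which counting error is larger. The log2 fold change of miR-106b-3p was -0.02 ± 0.12 (SE; 95% interval -0.29 to 0.26; adjusted p = 0.989 by edgeR), and folds from 0.818 to 1.196 lie within that interval.

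miR-106b-5p had 17.3, 13.3 and 20.7 CPM in tofogliflozin replicates 1, 2 and 3, against 16.99, 17.8 and 17.5 CPM in diet-only replicates 1, 2 and 3. The diet-only mice lay inside the range of the tofogliflozin mice, whose lowest library was replicate 2. The groups differed by -0.02 ± 0.20 on the log2 scale (SE; 95% interval -0.49 to 0.45; adjusted p = 0.989 by edgeR). It was 0.13 without tofogliflozin replicate 2 (adjusted p = 0.941 by edgeR).

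miR-93-5p, described as repressing Vegfa in diabetic kidney, had 143, 208 and 102 CPM in tofogliflozin replicates 1, 2 and 3, against 114, 113 and 123 CPM in diet-only replicates 1, 2 and 3. Tofogliflozin mice held both the highest and the lowest level. The log2 fold change of 0.37 ± 0.25 (SE; 95% interval -0.20 to 0.94) had an adjusted p = 0.859 by edgeR. It was 0.07 without tofogliflozin replicate 2 and 0.62 without tofogliflozin replicate 3 (adjusted p = 0.941 and 0.268 by edgeR).

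miR-25-3p, the most abundant member and a miRNA described as repressing the NADPH oxidase Nox4 in diabetic kidney, had 650.1, 592 and 615 CPM in tofogliflozin replicates 1, 2 and 3, against 622, 630.5 and 657 CPM in diet-only replicates 1, 2 and 3. The groups overlapped. Its coefficient of variation was 3.79%, rank 5 from the lowest. The difference was -0.04 ± 0.11 on the log2 scale (SE; 95% interval -0.29 to 0.21; adjusted p = 0.969 by edgeR). With 3972 to 14138 counts a library, miR-25-3p rests on more reads than any other member. The minor strand miR-25-5p stood at 6.07 ± 1.80 CPM in tofogliflozin mice and 6.48 ± 1.32 CPM in diet-only mice (SD, n = 3 each).

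**Figure D2:**
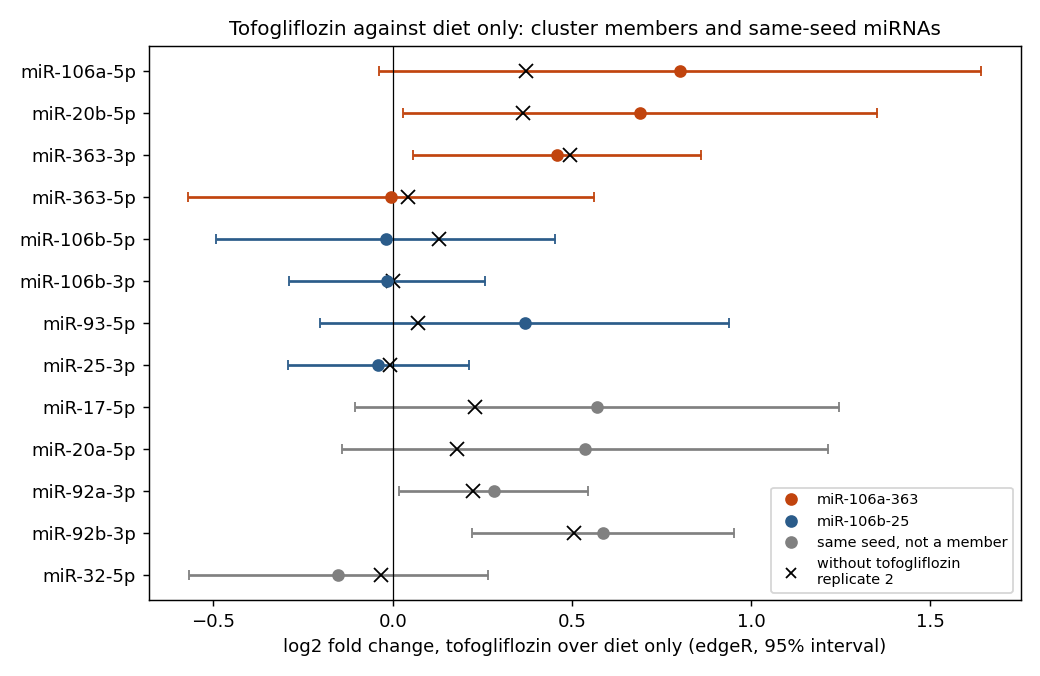
Log2 fold change of tofogliflozin over diet only from edgeR (horizontal axis, points with 95% intervals) for the 8 tested members and for 5 miRNAs with a member's seed, with crosses for the value without tofogliflozin replicate 2. The values for miR-106a-5p and miR-20b-5p drop to 0.37 and 0.36 without that library, and miR-363-3p stands at 0.46 with it and 0.50 without it.

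Tofogliflozin replicate 2 carried an uneven pattern across the members. Relative to the median of the other 5 libraries, it held 2.55 times as much miR-106a-5p, 2.13 times as much miR-20b-5p, 2.04 times as much of the scarce miR-18b-5p and 1.83 times as much miR-93-5p. The miR-17-92 members with that seed were also higher in it, at 2.11 times that median for miR-17-5p and 2.13 times for miR-20a-5p. miR-106b-5p has the same seed but stood at 0.759 times that median. The other 4 members lay nearer to it, at 0.889 times for miR-363-5p, 0.940 times for miR-25-3p, 0.967 times for miR-106b-3p and 1.16 times for miR-363-3p.

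Some markers of other cells also moved in this library. The liver miRNA miR-122-5p was at 245 CPM in tofogliflozin replicate 2, against 45.8 to 49.3 CPM in the other tofogliflozin mice and 40.7 to 78.6 CPM in diet-only mice. The 4 erythroid miRNAs, led by miR-486-5p and with both tested ones above 0 in log2 fold change, summed to 84.3 to 224 CPM in tofogliflozin mice, highest in replicate 2, and to 46.7 to 165 CPM in diet-only mice. The 6 leukocyte miRNAs summed to 130 to 195 CPM in tofogliflozin mice and 140 to 193 CPM in diet-only mice. Both sums overlapped between the groups, and tofogliflozin replicate 2 was the highest of the 6 libraries in each. In it miR-486-5p (212 CPM) and the scarce miR-144-3p (1.04 CPM) were at their highest. The erythroid miR-451a (11.3 CPM) was not, and lay below tofogliflozin replicate 1 (14.7 CPM). Among the leukocyte miRNAs, miR-155-5p (88.6 CPM) and miR-142-3p (11.9 CPM) were at their highest there. miR-142-5p (9.69 CPM) and miR-150-5p (46.8 CPM) were at their lowest there. Of the 6 leukocyte miRNAs, 1 had a log2 fold change above 0. The 2 endothelial miRNAs summed to 15286 to 20925 CPM in tofogliflozin mice and 18258 to 22210 CPM in diet-only mice. The 2 neuroendocrine miRNAs summed to 1443 to 3428 CPM in tofogliflozin mice and 2192 to 2413 CPM in diet-only mice. The 3 of striated muscle summed to 92.2 to 120 CPM in tofogliflozin mice and 97.0 to 126 CPM in diet-only mice. These 3 sums overlapped between the groups too. Tofogliflozin replicate 2 was the highest of the 6 libraries for the neuroendocrine sum and the lowest for the endothelial and muscle sums. The neuroendocrine miRNAs went opposite ways in it, with miR-7a-5p at its highest (3285 CPM) and miR-375-3p at its lowest (142 CPM). In the muscle list miR-1a-3p was at its lowest there (88.4 CPM) and the scarce miR-133a-3p at its highest (2.09 CPM). None of these markers was at 0 over all 6 libraries, and edgeR called none of them with the low-count filter. Without that filter edgeR called miR-122-5p (log2 fold change 1.04, adjusted p = 0.000417), and the kidney marker miR-204-5p was called without the filter and by DESeq2. Their part in the member results was not tested.

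The clusters were then compared directly by the log2 ratio of same-seed paralogs within a library, which needs no scaling between libraries. Across 7 ratios, 5 of paralogs and 2 of strands, none had a p-value below 0.1, the smallest possible in the exact 2-sided permutation test with 3 against 3 mice. The ratio of miR-363-3p to miR-25-3p was -4.62, -4.60 and -4.55 in tofogliflozin replicates 1, 2 and 3, against -4.89, -5.06 and -5.34 in diet-only replicates 1, 2 and 3. The tofogliflozin mice lay close together and above all diet-only mice, with a difference of 0.51 ± 0.14 on the log2 scale (SE; exact permutation p = 0.1, Benjamini-Hochberg adjusted p = 0.233). Leaving out a library in turn gave 0.38 to 0.61. Since miR-25-3p varied little (coefficient of variation 3.79%), this ratio largely repeats the separation of miR-363-3p given above and is not separate evidence.

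The ratio of miR-20b-5p to miR-93-5p was -3.31, -3.17 and -3.18 in tofogliflozin replicates 1, 2 and 3, against -3.44, -3.73 and -3.50 in diet-only replicates 1, 2 and 3. The groups did not overlap, and the difference was 0.34 ± 0.10 (SE; exact permutation p = 0.1, adjusted p = 0.233). The ratio of miR-106a-5p to miR-93-5p likewise did not overlap, at -5.31, -4.77 and -4.91 in tofogliflozin mice against -5.46, -5.47 and -5.36 in diet-only mice. Its difference was 0.43 ± 0.16 (SE; exact permutation p = 0.1, adjusted p = 0.233). Without tofogliflozin replicate 2 these differences were 0.31 and 0.32.

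Against miR-106b-5p the same chromosome X members gave no such separation. The ratio of miR-106a-5p to miR-106b-5p was -1.90 ± 0.95 in tofogliflozin mice and -2.69 ± 0.13 in diet-only mice (SD, n = 3 each), a difference of 0.79 ± 0.56 (SE; exact permutation p = 0.2, adjusted p = 0.28). It was 0.25 without tofogliflozin replicate 2. For miR-20b-5p over miR-106b-5p the difference was 0.70 ± 0.50 (SE; exact permutation p = 0.3, adjusted p = 0.35), and 0.24 without that library. The 5 ratios share members and are not independent of each other.

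**Figure D3:**
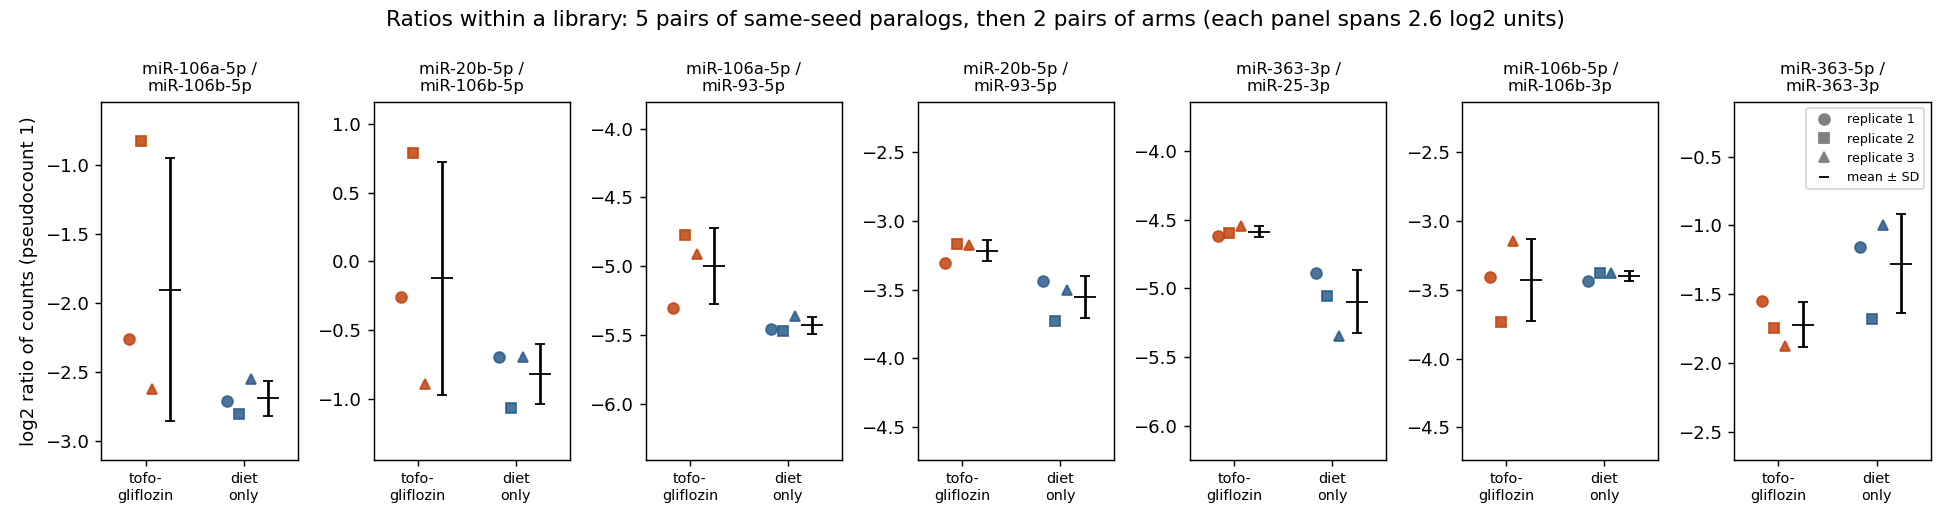
Log2 ratio of counts within a library, with a pseudocount of 1 (vertical axes, each spanning the same number of log2 units), for the 5 pairs of paralogs and the 2 pairs of strands, tofogliflozin left and diet only right, with the mean ± SD in black. The groups are apart for miR-106a-5p and miR-20b-5p over miR-93-5p and for miR-363-3p over miR-25-3p, and overlap in the other 4 panels.

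Strand usage was read from the hairpins with both strands among the members. Of the counts of miR-106b, the 5p strand took 8.54% ± 1.61 in tofogliflozin mice and 8.64% ± 0.185 in diet-only mice (SD, n = 3 each). Its extremes were 6.92% in tofogliflozin replicate 2 (Wilson 95% interval 5.65% to 8.43%) and 10.1% in tofogliflozin replicate 3 (9.20% to 11.1%). Those intervals do not meet, while the 3 diet-only mice lay within 8.42% to 8.76%. The log2 ratio of miR-106b-5p to miR-106b-3p differed by -0.03 ± 0.17 (SE; exact permutation p = 0.8).

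In miR-363 the 3p strand led, and the 5p strand took 23.2% ± 2.04 of the counts in tofogliflozin mice and 29.3% ± 5.02 in diet-only mice (SD, n = 3 each). The tofogliflozin shares were 25.4%, 22.7% and 21.4% in replicates 1, 2 and 3, against 30.9%, 23.7% and 33.3% in diet-only replicates 1, 2 and 3. The groups overlapped, and the log2 ratio differed by -0.44 ± 0.23 (SE; exact permutation p = 0.2, adjusted p = 0.28). For miR-93 the 3p strand held 0.206%, 0.782% and 1.87% of the counts in tofogliflozin replicates 1, 2 and 3. In diet-only replicates 1, 2 and 3 it held 0.231%, 0.767% and 2.38%. This share rose with the replicate number in both groups, on few counts, and the cause was not tested.

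The place of the members within their seed families was described next. Of 7 names with the seed of miR-17, miR-93-5p supplied 47.5% ± 1.83 of the counts, miR-20a-5p 24.4% ± 1.53, miR-17-5p 15.7% ± 1.149, miR-106b-5p 6.63% ± 2.18, miR-20b-5p 4.53% ± 0.510 and miR-106a-5p 1.27% ± 0.243 (SD, n = 6 libraries), with miR-6383 at 0 counts. The miR-106a-363 members together took 5.86%, 6.78% and 6.50% in tofogliflozin replicates 1, 2 and 3, against 5.50%, 4.91% and 5.28% in diet-only replicates 1, 2 and 3. These shares did not overlap between the groups, although the Wilson 95% interval of 5.18% to 6.61% for tofogliflozin replicate 1 covers 2 of the diet-only values. The miR-106b-25 members took 52.2% ± 2.80 in tofogliflozin mice and 56.0% ± 2.47 in diet-only mice (SD, n = 3 each), with overlap.

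Of 6 names with the seed of miR-25, miR-92a-3p supplied 74.3% ± 2.35, miR-25-3p 21.9% ± 2.42, miR-92b-3p 1.98% ± 0.327, miR-32-5p 1.06% ± 0.201 and miR-363-3p 0.764% ± 0.112 (SD, n = 6 libraries). The share of miR-25-3p was 20.5%, 18.1% and 21.3% in tofogliflozin replicates 1, 2 and 3, against 24.2%, 22.7% and 24.5% in diet-only replicates 1, 2 and 3. This share was lower in each tofogliflozin mouse, while the level of miR-25-3p itself overlapped between the groups. miR-92a-3p, the main other contributor, was at 2363 ± 209 CPM in tofogliflozin mice and 1944 ± 99.0 CPM in diet-only mice (SD, n = 3 each). The fitted difference was 0.28 ± 0.11 on the log2 scale (SE; adjusted p = 0.854 by edgeR), and the groups did not overlap. They did not overlap for miR-92b-3p either, at 0.59 ± 0.16 (SE; adjusted p = 0.854 by edgeR) and 0.51 without tofogliflozin replicate 2. For miR-32-5p the difference was -0.15 ± 0.18 (SE), with overlap.

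**Figure D4:**
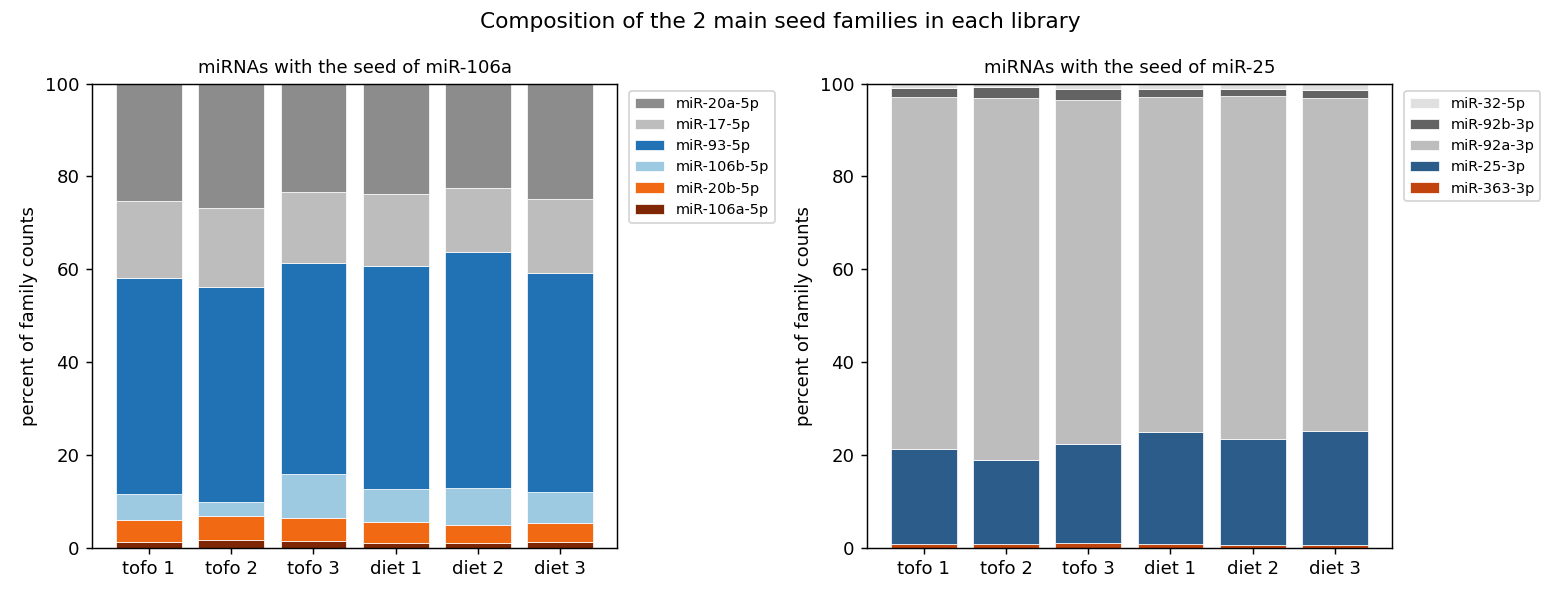
Share of counts (vertical axis, percent) supplied by each miRNA with the seed of miR-106a (left) and with the seed of miR-25 (right) in the 3 tofogliflozin libraries and the 3 diet-only libraries, with chromosome X members in orange and brown and chromosome 5 members in blue. miR-93-5p makes up close to 47.5% of the first family, and the miR-25-3p band is lower in the tofogliflozin bars than in the diet-only bars.

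The remaining relatives of the members were summarised as lists. The names shared by miR-106a-363 and miR-17-92, miR-19b-3p and miR-92a-3p, were each listed under both precursors. For miR-19b-3p the rows were nearly equal, at 24.5 ± 3.15 CPM in tofogliflozin mice and 20.4 ± 2.002 CPM in diet-only mice under the chromosome X precursor, and 24.4 ± 3.18 CPM in tofogliflozin mice and 20.2 ± 1.90 CPM in diet-only mice under the chromosome 14 precursor (SD, n = 3 each). For miR-92a-3p the row of the chromosome X precursor held 446 ± 24.3 CPM in tofogliflozin mice and 397 ± 65.9 CPM in diet-only mice (SD, n = 3 each), while the larger row, under the chromosome 14 precursor, gave the levels above. Which locus those reads came from cannot be told from the mature sequence. Of the 7 tested miR-17-92 arms not shared with chromosome X, 5 had a log2 fold change above 0, 2 below, and 0 were called, with a median of 0.24. Over all miRNAs tested, 226 of 460 (49.1%) were above 0 and the median was -0.005. miR-17-5p was at 0.57 ± 0.29 (SE), and at 0.23 without tofogliflozin replicate 2, and miR-20a-5p was at 0.54 ± 0.29 (SE), and at 0.18 without it.

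Since miR-106a-5p and miR-17-5p differ by 1 base, their proportion was also read. miR-106a-5p made up 6.53%, 8.82% and 8.85% of the counts of these 2 miRNAs in tofogliflozin replicates 1, 2 and 3, against 6.52%, 7.44% and 6.64% in diet-only replicates 1, 2 and 3. These shares overlapped between the groups. Their Wilson 95% intervals, which cover counting error within a library and not the spread between mice, ran from 4.96% to 11.4% in tofogliflozin mice and from 4.997% to 10.2% in diet-only mice. miR-20b-5p made up 15.7% to 17.7% of its counts with miR-20a-5p in tofogliflozin mice and 14.3% to 15.7% in diet-only mice. The groups did not overlap, but only just, at 15.7005% in tofogliflozin replicate 1 against 15.6889% in diet-only replicate 1. The Wilson 95% interval of tofogliflozin replicate 1 was 13.8% to 17.8%. Whether reads passed between these near-identical miRNAs was not tested.

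Among tested miRNAs outside the 9, those most like miR-106a-5p across the 6 libraries were miR-1940 (Pearson r = 0.99), miR-877-5p (0.98) and miR-1291 (0.97), each at a mean of 1.87 to 3.00 CPM. Those most like miR-25-3p were miR-26b-3p (0.95), miR-434-3p (0.94) and miR-704 (0.93). These values are of log2 CPM, were the highest of all miRNAs tested, and are a description over few libraries that differ in depth. Tofogliflozin replicate 2, the highest library for miR-106a-5p, was also the highest for miR-1940 and miR-1291. In it miR-1940 was at 5.97 CPM, against 0.878 to 1.33 CPM in the other libraries. miR-1291 was at 9.25 CPM, against 1.17 to 3.11 CPM. Correlations without that library were not computed.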

How the data were processed

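Small RNA libraries of the renal cortex of 6 mice were prepared with NEBNext reagents, per the labels' protocols. The authors deposited 1 table of raw read counts per library. Per the submitters' processing notes, cutadapt 1.14 and build mm10 were used, and which aligner, counter and miRBase release is not given in the sources used here. Each table had 2033 rows and 1900 mature names. For the 75 names with several rows the largest count per library was taken. Reads carry no molecular identifiers, so intervals cover counting error only, and ligation favours some sequences, so levels of different miRNAs are not molar amounts.

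Differences are tofogliflozin over diet only from edgeR 4.0.16 under R 4.3.3 (TMM factors, quasi-likelihood test, filterByExpr with a smallest count of 10 and total of 15, no covariates, Benjamini-Hochberg adjustment over the 460 miRNAs tested, threshold 0.05). The SE is the absolute log2 fold change over the square root of F. Log2 CPM used a prior count of 2. Permutation tests were exact and 2-sided, over 20 arrangements. Ratios used a pseudocount of 1, with adjustment over 7 ratios. DESeq2 1.42.0, limma 3.58.1 (voom), other size factors, filters and row merging, the replicate number as a block and each library left out were alternatives. The fit was tested on simulated data. The series' design text describes 3 mice in each group, 1 per library. The members, lists and tests were chosen with earlier results of these data known. Non-members named are miRNAs with a member's seed or of the same clusters, the 3 nearest by correlation to miR-106a-5p and to miR-25-3p, and marker lists.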

Additional observations from a re-analysis of the deposited data

How the results depend on the processing

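No member was called under any alternative run. Over all miRNAs the count of calls was 0 except without a filter on low counts (10) and with DESeq2 (2), and it was 0 with each library left out. miR-106a-5p (0.37 to 1.04 with a library left out), miR-20b-5p (0.36 to 0.93), miR-363-3p (0.37 to 0.57) and miR-93-5p (0.07 to 0.62) stayed above 0 and miR-25-3p (-0.04 to -0.007) below 0 throughout. Values near 0 changed sign, and the cause was not tested. miR-363-5p was at 0.029 with differing rows summed, 0.0084 with RLE size factors, 0.0072 with DESeq2, 0.0019 with limma-voom and 0.0077 with the replicate block, and between -0.14 and 0.17 when each library was omitted. miR-106b-5p was at 0.014 with differing rows summed and 0.00099 with DESeq2, and between -0.16 and 0.13. miR-106b-3p was at 0.020 with differing rows summed, and between -0.015 and 0.025. The log2 ratio of miR-106b-5p to miR-106b-3p ran from -0.17 to 0.12, and the other 6 ratios kept their direction under every alternative run. Deviations from the group means correlated across miRNAs by only 0.003, -0.14 and -0.17 between mice of equal number, so the numbers were not taken as pairs. The 3p share of miR-93 did rise with the replicate number in both groups. The replicate block left 0 calls, and miR-106a-5p was at 0.73, miR-20b-5p at 0.64 and miR-363-3p at 0.47. Depth limits miR-18b-5p, with 4 to 10 counts a library, and miR-106a-5p, with 34 to 60.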
